A study of Mus musculus with 8 samples.

Results

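miR-26a, miR-26b, miR-101a and miR-101b are 4 microRNAs (miRNAs) reported to repress Ezh2, the histone H3 lysine 27 methyltransferase of Polycomb repressive complex 2. They were chosen by their read counts in these 8 libraries, where miR-26 had been seen to be steady and was to be compared with miR-101, so their levels are given as a description, without a test. The mouse reference holds 5 hairpins for them, because miR-26a is made from a pair of genes, and these give 9 arms. All 9 arms had at least 1 read, out of 622 miRNA arms with a read in any library. The 4 guide arms (miR-26a-5p, miR-26b-5p, miR-101a-3p and miR-101b-3p) passed the filter of at least 10 counts per 1000000 miRNA reads (CPM) in at least 3 libraries, as did 294 miRNAs in all, and the 5 passenger arms did not.

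The libraries hold small RNAs of NIH-3T3, an immortalised line of mouse embryo fibroblasts that arrests when serum is withdrawn or when the cells fill the dish. Every culture was passaged in medium with 10% DCS. In the serum experiment, cells were starved for 48 h, given 20% serum and collected 0 h (labelled G0), 12 h (G1), 16 h (S), 20 h (G2/M) and 24 h (G1) later. The contact experiment began with cells at 12% confluency and has libraries of day 0 (asynchronous), day 3 (G0) and day 5 (G0). Each of the 8 conditions has 1 library, so differences between single libraries have no replicate check, intervals on them cover counting error only, and p-values over the 3 libraries labelled G0 and the other 5 measure only the spread between these libraries. In such bulk samples, fewer cells that make a miRNA and less of it per cell cannot be told apart.

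A miRNA is cut from a hairpin transcript, and one arm of the duplex, the guide, is loaded into an Argonaute protein while the other, the passenger, is mostly lost. The guide pairs with sites in 3′ untranslated regions (UTRs) through its seed, so a shift of the 5′ end by a single base changes which sites it matches. miR-26 and miR-101 have different seeds and are known from several tumour types as repressors of EZH2. Ezh2 itself is a gene of dividing cells, driven by E2F factors, and its level was not measured in the libraries used here.

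The mature sequences are shown because the families are told apart by their seeds (capitals, bases 2 to 8 from the 5′ end) and their members by 1 or 2 bases outside it. All are from RefSeq (GRCm38.p6), written 5′ to 3′.
miR-26a-5p: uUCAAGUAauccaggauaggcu
miR-26b-5p: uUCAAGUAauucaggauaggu
miR-101a-3p: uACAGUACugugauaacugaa
miR-101b-3p: gUACAGUAcugugauagcu
The annotated start of miR-101b-3p lies 1 base upstream of that of miR-101a-3p, so that as annotated the 2 miRNAs have seeds shifted by 1 base. In the reads, both starts were used by both miRNAs, as the most read form at each start shows (seed again in capitals).
miR-101a-3p, start at U: uACAGUACugugauaacugaag
miR-101a-3p, start at G: gUACAGUAcugugauaacuga
miR-101b-3p, start at U: uACAGUACugugauagcugaag
miR-101b-3p, start at G: gUACAGUAcugugauagcugaa
Over all libraries the top form of the U start of miR-101b-3p had 1290 reads, against 694 for that of the G start, and for miR-101a-3p the numbers were 376 and 379. Summed over all forms, the U start had 2438 reads and the G start 1252 for miR-101b-3p, and 1185 and 939 for miR-101a-3p. Reads were counted by the first 20 bases from the U start for both miR-101 miRNAs, and again with every start within 2 nt. From that U start the most read forms of miR-101a-3p and miR-101b-3p were identical at 21 of 22 positions, with A16G the 1 difference (positions from 1 at the 5′ end, miR-101a first). The most read forms of miR-26a-5p and miR-26b-5p were identical at 20 of 22, with C11U and C21U (miR-26a first).

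The hairpins of the miR-101 miRNAs are shown to place the starts, with both annotated arms in capitals. The U start of miR-101b is the second capital letter of its 3′ arm, and the G start of miR-101a is the small letter just before its 3′ arm.
Mir101a: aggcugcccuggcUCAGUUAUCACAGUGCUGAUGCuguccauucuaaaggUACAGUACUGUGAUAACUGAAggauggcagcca
Mir101b: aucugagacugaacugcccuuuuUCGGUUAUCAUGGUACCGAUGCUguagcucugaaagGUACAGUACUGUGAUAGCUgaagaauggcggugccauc
By the GENCODE M21 annotation of GRCm38, Mir101a lies at chr4:101346945-101347027 on the minus strand, in an exon of the long non-coding RNA E130102H24Rik. Mir101b lies at chr19:29135279-29135375 on the plus strand, in an intron of Rcl1, a gene of ribosomal RNA processing. The 3 miR-26 hairpins all lie inside genes of small C-terminal domain phosphatases, on the same strand as the host. Mir26b is at chr1:74394310-74394394 (plus strand) in an intron of Ctdsp1. Mir26a-1 is at chr9:119031796-119031885 (plus strand) in an intron of Ctdspl. Mir26a-2 is at chr10:126995530-126995613 (plus strand) within Ctdsp2, where at least 1 annotated protein-coding transcript runs over it as an exon.

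The 3′ UTR of Ezh2 is 402 nt long in all 4 of its annotated transcripts with a 3′ UTR (GENCODE M21, chromosome 6). It holds 1 match to the miR-26 seed, TACTTGA, and 2 matches to the seed of the miR-101 U start, GTACTGT. The seed of the G start, TACTGTA, has 1 match, which overlaps the later of the U-start matches. The sites are shown with the match in capitals, in the sense strand.
miR-26 site, UTR position 248: aatttgaataaagaaTACTTGAacttg
miR-101 U-start site, UTR position 59: cttcaggaaccttgaGTACTGTgggca
miR-101 U-start site, UTR position 114: ttctgaatttgcaaaGTACTGTaacag
miR-101 G-start site, UTR position 115: tctgaatttgcaaagTACTGTAacagt
Thus of the 2 miR-101 sites only the one at position 114 also holds the letters of the G-start match. Among the longest 3′ UTRs of 21020 genes, 9.67% held the miR-26 match, 9.38% the U-start match and 12.2% the G-start match, read on the sense strand. Among 6439 UTRs of a length like that of Ezh2, the shares were 3.14%, 3.31% and 4.64%. Of the other Polycomb genes examined, Eed had 1 U-start match and Suz12 1 miR-26 match, and Ezh1 had none of the 3. A match is a description of these letters and no measure of repression.

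The libraries differed in what they contained before any miRNA was counted. Total reads ranged from 707202 to 8512472, and between 63% and 96% of the reads of the 5 serum libraries were forms of 2 oligonucleotide-like inserts, taken here to be markers although the labels do not say what they are, against 0.0392% or less of the 3 contact libraries. Inserts too short to use took 27.9% of the serum 0 h library, against 0.251% to 1.83% of each of the other 7. That left 130476 to 850506 miRNA reads per library. Scaling by edgeR's trimmed mean of M values (TMM) gave factors of 1.13 to 1.501 in serum and 0.601 to 0.794 in contact libraries, so a level set across the experiments rests on it. Fibroblast or mesenchymal miRNAs, of which 4 of 6 listed were found, summed to between 82456 and 519911 CPM. Epithelial miRNAs (4 of 5 found) summed to 2335 CPM at serum 0 h and to 7.60 to 8.95 CPM in the contact G0 libraries, against 0 to 9.37 CPM in the other 5. Blood miRNAs (3 of 5 found) summed to 211 CPM at serum 0 h and to at most 18.7 CPM elsewhere. Muscle miRNAs (1 of 3 found) ranged over 148 to 256 CPM in G0, against 94.0 to 887 CPM outside it, with the highest sum on contact day 0. Neural miRNAs (1 of 2 found) ranged over 184 to 604 CPM in G0, against 0 to 610 CPM outside it. The part of these marker levels in the values below was not tested.

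miR-26a-5p was abundant and varied little, with the lowest level within 1.89-fold of the highest. Its TMM-scaled level was 29727, 24547, 35020, 29805 and 25818 CPM at serum 0, 12, 16, 20 and 24 h, and 18484, 22577 and 31184 CPM on contact days 0, 3 and 5. The standard deviation (SD) of its log2 level over the 8 libraries, 0.30, was the second smallest of the 294 miRNAs tested, whose median was 1.56. The lowest value was the asynchronous culture of contact day 0 and the highest was the S-phase library, and serum 0 h and 20 h could not be told apart by counting error (ratio 1.003, 95% interval 0.970 to 1.04, 20 h over 0 h). Part of this steadiness rests on the scaling. As an unscaled share of miRNA reads, miR-26a-5p made up 3.11% to 3.96% in the serum libraries and 1.25% to 1.87% in the contact libraries, a 3.16-fold range, and its SD was then 0.63 and the 17th smallest of 294.

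miR-26b-5p was less abundant and less even than its paralog. It had 11785, 6831, 14433, 12033 and 14190 CPM at serum 0, 12, 16, 20 and 24 h, and 3990, 7892 and 8314 CPM on contact days 0, 3 and 5. The range was 3.62-fold and the SD of the log2 level 0.63 (28th smallest of 294). Unscaled, the range was 6.33-fold and the SD 0.97 (73rd smallest). The highest pair, 24 h and 16 h, did not differ beyond counting error (ratio 1.02, interval 0.973 to 1.06, 16 h over 24 h), nor did contact days 5 and 3 (1.05, 0.995 to 1.12). In the first 20 bases, by which reads were counted, miR-26a and miR-26b differ only at position 11. Within 1 library their ratio needs no scaling: there were 39.6, 27.8, 41.2, 40.4 and 55 miR-26b reads per 100 miR-26a reads at serum 0 to 24 h, and 21.6, 35 and 26.7 on contact days 0, 3 and 5. The ratio was thus near 40 at 0, 16 and 20 h, highest at 24 h and lowest on contact day 0, between 2 guides that carry the same seed.

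The miR-101 guides were far less abundant than the miR-26 guides, and their TMM-scaled levels spread more. miR-101b-3p had 262, 729, 936, 287 and 477 CPM at serum 0, 12, 16, 20 and 24 h, and 201, 1367 and 1980 CPM on contact days 0, 3 and 5. It thus had both its lowest and its highest level in the contact experiment, 9.87-fold apart, with an SD of the log2 level of 1.19 (121st smallest of 294). Unscaled, it spread over 8.74-fold with an SD of 1.14 (96th smallest), nearer to the unscaled values of miR-26b-5p. miR-101a-3p had 470, 425, 737, 351 and 76.3 CPM at serum 0 to 24 h, and on contact days 0, 3 and 5 it had 0, 41.8 and 312 CPM, from 0, 14 and 82 reads. At the depth of contact day 0 a count of 0 allows up to 14.0 CPM (3 reads). Its SD of the log2 level, 3.13, was the 288th smallest of 294, among the most variable, and includes the library at 0 (unscaled 3.25, the 290th).

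**Figure D1:**
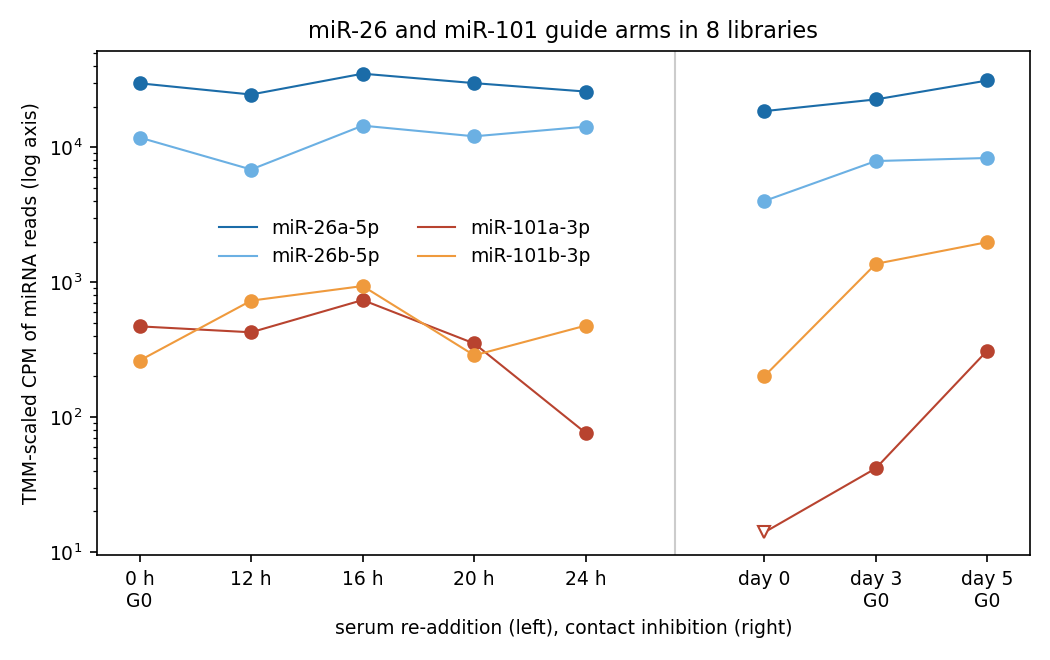
TMM-scaled CPM of the 4 guide arms (log axis) in the serum time course (left) and the contact time course (right). Each point is 1 library, and G0 marks the libraries labelled so. The open triangle is the upper limit of 14.0 CPM for the 0 U-start reads of miR-101a-3p on contact day 0. With TMM scaling the miR-26 lines stay within 1.89-fold and 3.62-fold (3.16-fold and 6.33-fold unscaled), while both miR-101 lines climb over the contact days.

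The proportion of the miR-101 paralogs varied widely within the serum series, and its 24 h value lay close to that of contact day 5. There were 179, 58.3, 78.8, 122 and 16.0 miR-101a-3p reads per 100 miR-101b-3p reads at serum 0, 12, 16, 20 and 24 h, and 0, 3.06 and 15.7 on contact days 0, 3 and 5. By the U start, miR-101a-3p was therefore the more read of the pair at 0 h and 20 h. The interval at 0 h excluded equal numbers (135 to 240 per 100) and that at 20 h did not (85.3 to 176). With every 5′ start counted, miR-101b-3p was the more read at 20 h (180 against 108 reads, interval 46.8 to 76.6 per 100). At 0 h that count still gave 179 per 100. With inserts that match the hairpin over their whole length, the interval at 0 h included equal numbers (68 against 65 reads, 73.4 to 149 per 100). In every contact library miR-101b-3p made up most of the family. The low 24 h value rests on 12 reads of miR-101a-3p.

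Some of these counts came from few distinct inserts, and the reads carry no molecular identifiers. At serum 12 h, 213 reads of miR-101b-3p came from 2 distinct inserts and 185 reads of miR-101a-3p from 4. The starved library was also thin, with 241 reads of miR-101b-3p from 9 distinct inserts and 424 reads of miR-101a-3p from 11. At serum 24 h, 26 reads of miR-101a-3p came from 3. By comparison, 1683 reads of miR-101b-3p at 16 h came from 46 distinct inserts, and 559 reads on contact day 3 from 27. miR-26a-5p had 32 distinct inserts at 12 h and 52 to 226 in the other 7 libraries.

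Contact-arrested cells, set against the asynchronous culture of day 0, gave the highest ratios of the miR-101 sum. The ratio of miR-101b-3p was 6.81 for day 3 over day 0 (458 against 43 reads, 95% interval 4.98 to 9.54) and 9.87 for day 5 over day 0 (521 against 43 reads, 7.22 to 13.8). Set against the 3-read limit of day 0, miR-101a-3p was 2.98-fold higher on day 3 and 22.3-fold higher on day 5. These values leave out the counting error of the 14 and 82 reads. The exact interval of miR-101a-3p for day 3 over day 0 began at 2.12 and had no upper end. Summed over both guides, miR-101 was 7.02-fold higher on day 3 (5.13 to 9.83) and 11.4-fold higher on day 5 (8.37 to 15.9). The miR-26 sum was 1.36-fold higher on day 3 (1.31 to 1.40) and 1.76-fold higher on day 5 (1.70 to 1.82), of which miR-26b-5p was up 1.98-fold and 2.08-fold and miR-26a-5p 1.22-fold and 1.69-fold. With TMM scaling, all 4 guides thus had their lowest level in the contact series on day 0, which for miR-26a-5p on day 3 depends on the scaling. The miR-101 sum had several times the ratio of the miR-26 sum.

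Between the contact days, miR-101a-3p had a ratio of 7.46, day 5 over day 3 (82 against 14 reads, interval 4.20 to 14.2), and miR-101b-3p one of 1.45 (1.28 to 1.65). Of the 141 miRNAs with at least 100 reads in 1 contact library, 33 (23.4%) were at least 2-fold higher on both days than on day 0 and 6 (4.26%) at least 2-fold lower. Of the 3 guides in that table, miR-101b-3p met the first criterion and miR-26a-5p and miR-26b-5p did not. miR-101a-3p, with 82 reads at most, was not in it.

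The release from starvation gave no common direction. Serum 0 h over 12, 16, 20 and 24 h, the miR-101 sum had ratios of 0.635 (interval 0.532 to 0.756), 0.438 (0.378 to 0.505), 1.15 (0.919 to 1.44) and 1.33 (1.03 to 1.72). The miR-26 sum had ratios of 1.32, 0.839, 0.992 and 1.04. Neither family was therefore higher, or lower, in the starved cells than in all 4 released libraries, and both had their lowest ratio against the S-phase library at 16 h. Of the 188 miRNAs with at least 100 reads in 1 serum library, 6 (3.19%) had at 0 h at least 2 times their level of all 4 released libraries, and 10 (5.32%) were at least 2-fold lower than all of them.

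Within the sum, the miR-101 guides went apart. miR-101b-3p was lower at 0 h than in each released library, with ratios of 0.360 (0 h over 12 h), 0.280 (16 h), 0.915 (20 h, interval 0.642 to 1.31) and 0.551 (24 h). miR-101a-3p at 0 h stood 1.11-fold over 12 h (0.861 to 1.42), 0.638-fold over 16 h, 1.34-fold over 20 h (0.999 to 1.81) and 6.17-fold over 24 h (3.42 to 12.2). Counting every 5′ start changed this comparison for the family: the miR-101 sum at 0 h was then 1.59-fold that of 12 h (1.40 to 1.81), 0.761-fold that of 16 h, 1.52-fold that of 20 h and 1.81-fold that of 24 h. The direction against 12 h turned, while the contact ratios stayed near their values, at 5.67-fold on day 3 and 11.1-fold on day 5.

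The 3 libraries labelled G0 were then set against the other 5 in an edgeR quasi-likelihood fit with the experiment as a term. The log2 difference was 2.36 (SE 1.70) for miR-101a-3p, 0.81 (SE 1.12) for miR-101b-3p, 0.27 (SE 0.41) for miR-26a-5p and 0.47 (SE 0.50) for miR-26b-5p, beside a median of −0.17 over all 294 miRNAs. Of the 294, 3 (1.02%) were called at an adjusted p under 0.05, with 25 at an unadjusted p under 0.05 and 13 called by DESeq2's Wald test. The guides were chosen on these levels, so no call is read for them. The mean level of miR-101b-3p was 1203 ± 870 CPM in G0 and 526 ± 306 CPM in the other libraries (SD, n = 3 and 5), and the groups overlapped for each of the 4 guides. Among all 294 miRNAs, every G0 library lay above every other for 4.76% and below for 3.06%. The number of calls was 0 without serum 0 h, 6 without contact day 3 and 8 without serum 16 h.

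The size and in part the direction of these differences depended on which libraries were in the fit. Without contact day 0, the only contact library that is not G0, the experiment term leaves only serum 0 h against the released libraries. The difference was then −1.21 for miR-101b-3p, 0.23 for miR-101a-3p, 0.045 for miR-26a-5p and −0.012 for miR-26b-5p. Without serum 0 h, the only serum library labelled G0, only contact days 3 and 5 against day 0 are left. The difference was then 3.06 for miR-101b-3p, 8.93 for miR-101a-3p, 0.55 for miR-26a-5p and 1.03 for miR-26b-5p. Without contact day 5 the value of miR-26a-5p was 0.13, that of miR-101a-3p 1.42 and that of miR-101b-3p 0.50. Without the experiment term, miR-101a-3p was at −0.22 and miR-26b-5p at −0.14.

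The ratio of miR-101 to miR-26 within a library needs no scaling between libraries. At serum 0, 12, 16, 20 and 24 h there were 1.77, 3.68, 3.38, 1.53 and 1.38 miR-101 reads per 100 miR-26 reads. On contact days 0, 3 and 5 there were 0.893 (interval 0.645 to 1.20), 4.62 (4.21 to 5.07) and 5.80 (5.33 to 6.30). By this count the 2 contact-arrested libraries stood highest of the 8 and the asynchronous culture lowest, while the starved library was close to 20 h and 24 h. With every 5′ start counted, the ratios were 5.13, 4.29, 5.64, 3.34 and 2.94 in the serum series and 1.29, 5.29 and 8.03 in the contact series. Contact day 0 stayed the lowest and contact day 5 the highest, while serum 16 h passed contact day 3. With inserts that match the hairpin over their whole length, serum 12 h (5.13) passed contact day 3 (4.92) and came close to contact day 5 (5.20). With every start, serum 0 h stood just under 16 h, where by the main start it lay below both 12 h and 16 h.

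**Figure D2:**
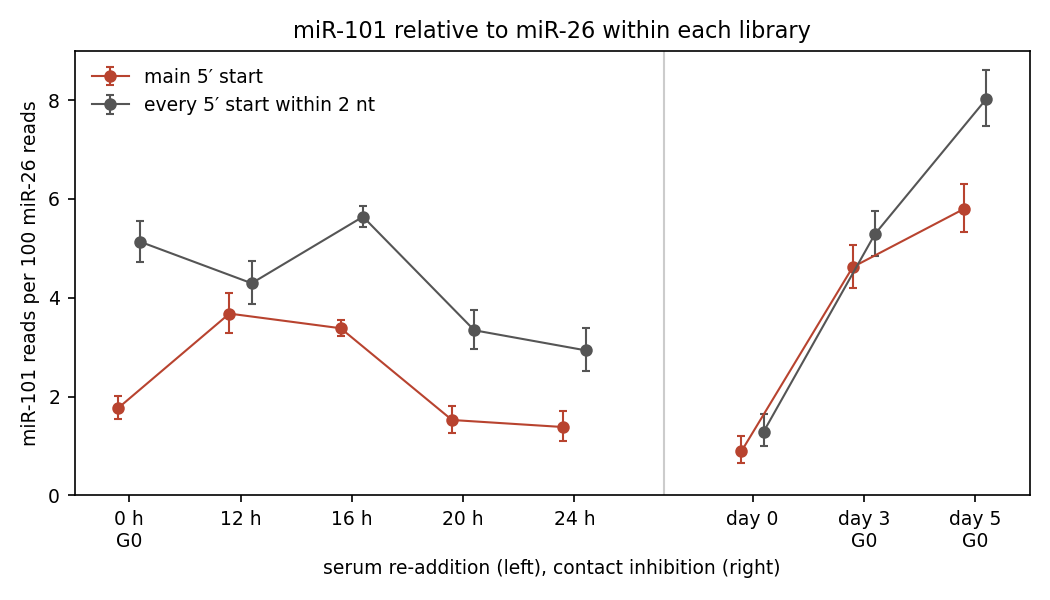
Reads of miR-101a-3p and miR-101b-3p per 100 reads of miR-26a-5p and miR-26b-5p in each library, with 95% exact conditional binomial intervals, by the main 5′ start (red) and by every start within 2 nt (grey). The contact series goes from 0.893 on day 0 to 5.80 on day 5 by the main start, and the starved library moves from 1.77 to 5.13 between the counts.

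The 5′ starts of miR-101 were mixed and those of miR-26 were nearly uniform. Of miR-26a-5p reads, 95.9% to 98.6% began at the annotated base, and of miR-26b-5p reads 98.0% to 100%. Of miR-101b-3p reads, the U start took 37.3%, 100%, 55.9%, 34.7% and 44.7% at serum 0, 12, 16, 20 and 24 h, and 69.8%, 83.7% and 73.6% on contact days 0, 3 and 5. The G start, with the shifted seed, took 62.7%, 0%, 39.99%, 65.3% and 49.2% in the serum series and 23.8%, 9.84% and 19.8% in the contact series. It was thus the most read start at serum 0 and 20 h and stood at no more than 23.8% in contact libraries. At 24 h the G start (88 of 179 reads) and the U start (80) had overlapping intervals, 41.6% to 56.7% and 37.3% to 52.3%. The 0% at 12 h rests on the 2 distinct inserts described above.

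The G start of miR-101a-3p took 62.7% at serum 0 h, 33.5% to 38.3% at 12, 16 and 20 h, and was that of 84 of 168 reads on contact day 5. At serum 0 h both paralogs therefore had a G-start share of 62.7%, from 424 and 241 reads of only 11 and 9 distinct inserts. Between G0 and the other libraries, the U-start share of miR-101b-3p averaged 64.9% ± 24.4 and 61.0% ± 25.4 (SD, n = 3 and 5), which did not differ beyond the spread (exact permutation test over 56 splits, 2-sided p = 0.821, adjusted over 11 shares 0.893). miR-101a-3p, with no U-start read on contact day 0, was not tested. Of 102 miRNAs with at least 50 reads in every library, the main-start share of G0 libraries lay below every other library in 2 (1.96%) and above in 0, and the median main-start share was 97.5%.

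**Figure D3:**
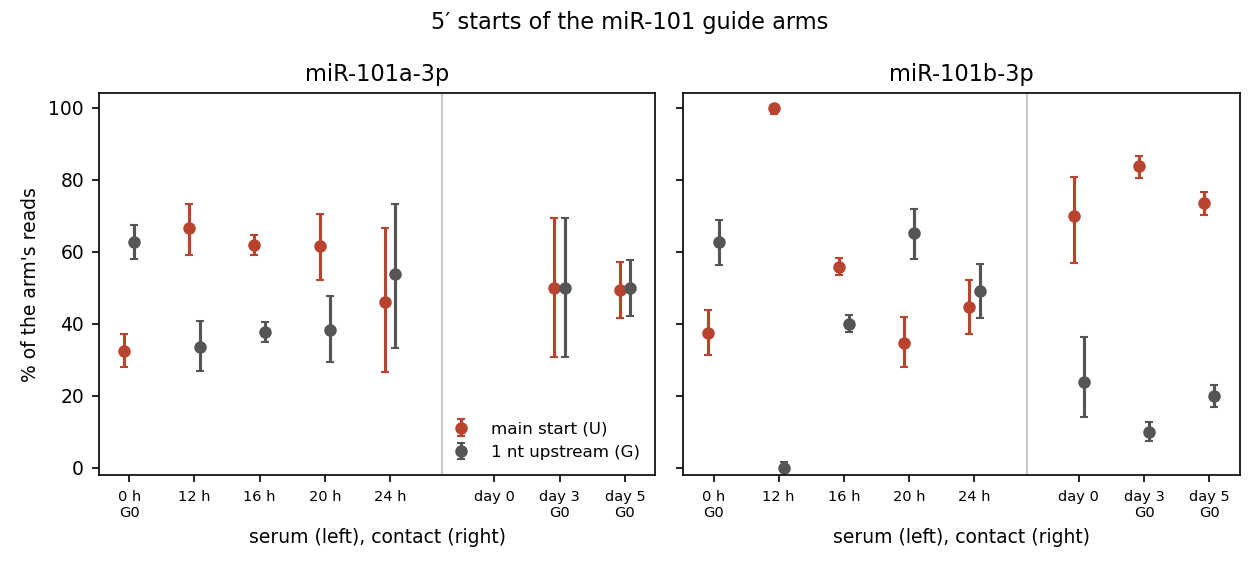
Share of reads of miR-101a-3p (left) and miR-101b-3p (right) that began at the U start (red) and at the G 1 base upstream (grey), with 95% Clopper-Pearson intervals, for libraries with at least 10 reads of the arm. miR-101b-3p in the contact libraries lies at 69.8% to 83.7% U start, and at serum 0 h both miRNAs have 62.7% G start.

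The 3′ ends of miR-26 carried bases that the hairpin does not encode, such as the A and U that terminal nucleotidyltransferases add to miRNAs. The most read forms show them, with the added base in capitals.
miR-26a-5p without a tail: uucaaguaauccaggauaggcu
miR-26a-5p with U: uucaaguaauccaggauaggcuU
miR-26a-5p with A: uucaaguaauccaggauaggcuA
miR-26b-5p without a tail: uucaaguaauucaggauagguu
miR-26b-5p with A: uucaaguaauucaggauagguuA
miR-26b-5p with U: uucaaguaauucaggauagguuU
Over all libraries these forms had 49058, 5351 and 4016 reads for miR-26a-5p and 20148, 2260 and 1901 for miR-26b-5p. The untailed form of miR-26b-5p was 22 nt long, 1 base longer than the RefSeq entry. A tail was counted when 1 to 3 bases after the longest match to the hairpin were left over. A changed base near the 3′ end therefore also counts as a tail. Such a form of miR-26b-5p, with 20 matched bases followed by GU, had 344 reads over all libraries and is as long as the untailed form.

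Tails on miR-26b-5p were fewer in the G0 libraries than in every other library. The tailed share of its main-start reads was 15.5% at serum 0 h and 16.4% and 14.9% on contact days 3 and 5, against 27.9%, 18.6%, 20.1% and 22.5% at serum 12, 16, 20 and 24 h and 19.3% on contact day 0. The groups did not overlap, with means of 15.6% ± 0.796 in G0 and 21.7% ± 3.78 in the other libraries (SD, n = 3 and 5). The exact permutation test gave p = 0.0357, 2-sided and the smallest that 56 splits allow, and 0.236 after adjustment over the 11 shares tested, so the difference does not pass the correction. These splits ignore the experiment, and G0 holds 1 serum and 2 contact libraries against 4 and 1. With G0 labels moved only within each experiment, the mean difference was −5.23 percentage points and p = 0.133, the smallest that the 15 such splits allow, so that this exact permutation test cannot reach 0.05. Of 93 miRNAs with at least 50 main-start reads in every library, the tailed share lay below in 7 (7.53%) and above in 2 (2.15%), and its mean was lower in G0 for 62. When only tails of 1 base were counted, the G0 and other libraries overlapped for miR-26b-5p.

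The tailed share of miR-26a-5p was 21.7% in the starved library and 18.6% and 17.1% on contact days 3 and 5, against 27.9%, 24.6%, 21.1% and 26.6% at serum 12 to 24 h and 25.1% on contact day 0. Here serum 0 h lay above 20 h, so the groups overlapped (19.1% ± 2.34 in G0 and 25.1% ± 2.58 in the other libraries, exact p = 0.0714, adjusted 0.236). Within each experiment the G0 libraries were lower, except for serum 0 h against 20 h. The A-tailed share of miR-26a-5p averaged 11.2% in G0 and 15.1% in the other libraries (exact p = 0.107, adjusted 0.236), and that of miR-26b-5p 8.03% and 12.5% (exact p = 0.107, adjusted 0.236). U-tailed shares differed less, with 7.68% and 9.64% for miR-26a-5p (exact p = 0.393) and 6.13% and 6.24% for miR-26b-5p (exact p = 0.893). In none of the 93 miRNAs did the U-tailed share lie below in every G0 library, and in 1 (1.08%) it lay above, while the A-tailed share lay below in 13 (14%). C and G tails made up at most 2.94% of either miRNA in any library. The share of untailed reads shorter than 22 nt was 10.2% ± 0.683 in G0 and 15.3% ± 4.76 in the other libraries for miR-26a-5p (SD, n = 3 and 5, exact p = 0.179, adjusted 0.281) and 11.9% ± 3.46 and 11.1% ± 4.58 for miR-26b-5p (exact p = 0.714, adjusted 0.873), with overlap in both. It lay above in every G0 library for 5 of the 93 miRNAs (5.38%). None of the 11 shares passed after adjustment.

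**Figure D4:**
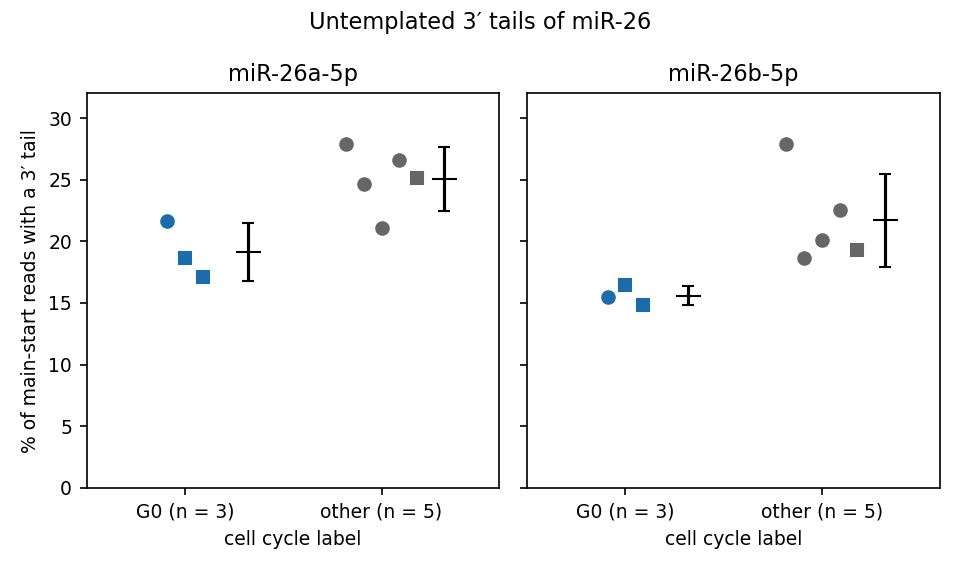
Share of main-start reads of miR-26a-5p (left) and miR-26b-5p (right) with a 3′ tail of 1 to 3 bases. Points are libraries (circles serum, squares contact), and bars are the mean and SD of the 3 G0 and the 5 other libraries. For miR-26b-5p the G0 libraries, at 14.9% to 16.4%, lie below the others, at 18.6% to 27.9%.

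The tailed share of miR-101a-3p varied widely between libraries: 50.7% of its U-start reads at serum 0 h, 47.0% at 16 h and 47.0% on contact day 5 were tailed, mostly with U (35.5%, 36.2% and 34.9%), while 22.5% were at 20 h, close to the miR-26 values there. Those at 0 h, 16 h and contact day 5 lie above both miR-26 shares of the same libraries. Of the few U-start reads of miR-101a-3p, all 12 at serum 24 h and 5 of 14 (35.7%) on contact day 3 were tailed. At serum 12 h it had no tailed read among 123 (upper limit 2.95%), below the 27.9% of both miR-26 miRNAs, in a library where its U-start reads were nearly all of a single form (122 reads). Tailed miR-101b-3p made up 13.3% in the starved library and 12.2% and 21.9% on contact days 3 and 5, against 0.939%, 35%, 23.9% and 35% at serum 12, 16, 20 and 24 h and 22.7% on contact day 0. These shares rest on fewer than 50 reads in some libraries and were not tested.

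The other arms had few reads. Over all libraries the 5p passenger of miR-101b had 2 reads and the 3p passengers of miR-26b and miR-26a 16 and 18, which is 0.0547%, 0.0533% and 0.0221% of the reads of both arms. Of the 18 miR-26a passenger reads, 17 were of the Mir26a-2 hairpin and 1 of Mir26a-1, whose 5p arms are identical and cannot be assigned. The 5p arm of miR-101a had 59 reads (2.76% of both arms), of which 55 came from serum 12 h and none from serum 0, 20 or 24 h.

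The libraries also differed by base composition, which touches these miRNAs because they are poor in G and C. The first 20 bases hold 35% GC in miR-101a-3p and miR-26b-5p and 40% in miR-101b-3p and miR-26a-5p, against a median of 45% over the miRNAs tested. Against the mean of all libraries, the log2 level changed per 10 percentage points of GC by −0.31, 0.57, −0.30, 0.13 and 0.37 at serum 0, 12, 16, 20 and 24 h and by 0.19, −0.15 and −0.49 on contact days 0, 3 and 5. Libraries with negative slopes thus read GC-poor miRNAs relatively more, and contact day 5 had the steepest of these. Its ratio to day 0 had a slope of −0.50 (SE 0.12, Pearson r −0.30, Spearman rho −0.35 across 192 miRNAs, which share both libraries), and that of day 3 to day 0 −0.22 (SE 0.08, r −0.19, rho −0.21 across 200).

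Among the 57 miRNAs with 35% to 40% GC and at least 10 reads in both libraries, the median log2 ratio of day 5 to day 0 was 1.06, and 29 (50.9%) were at least 2-fold higher. In that bin, 3 miRNAs had a higher day 5 ratio than miR-101b-3p, 28 a higher one than miR-26b-5p and 32 a higher one than miR-26a-5p. For day 3 over day 0 the median was 0.34, and 4 of the 57 stood above miR-101b-3p. The fitted line of each ratio against GC was also taken off, which removes the offset common to all miRNAs as well as the slope. The miR-101 sum was then 5.76-fold higher on day 3 and 7.42-fold higher on day 5 than on day 0, and the miR-26 sum 1.10-fold and 1.13-fold. Less this line the miR-26 ratios came close to 1, while the miR-101 ratios stayed above 5. The part of GC alone was not separated from the offset.

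**Figure D5:**
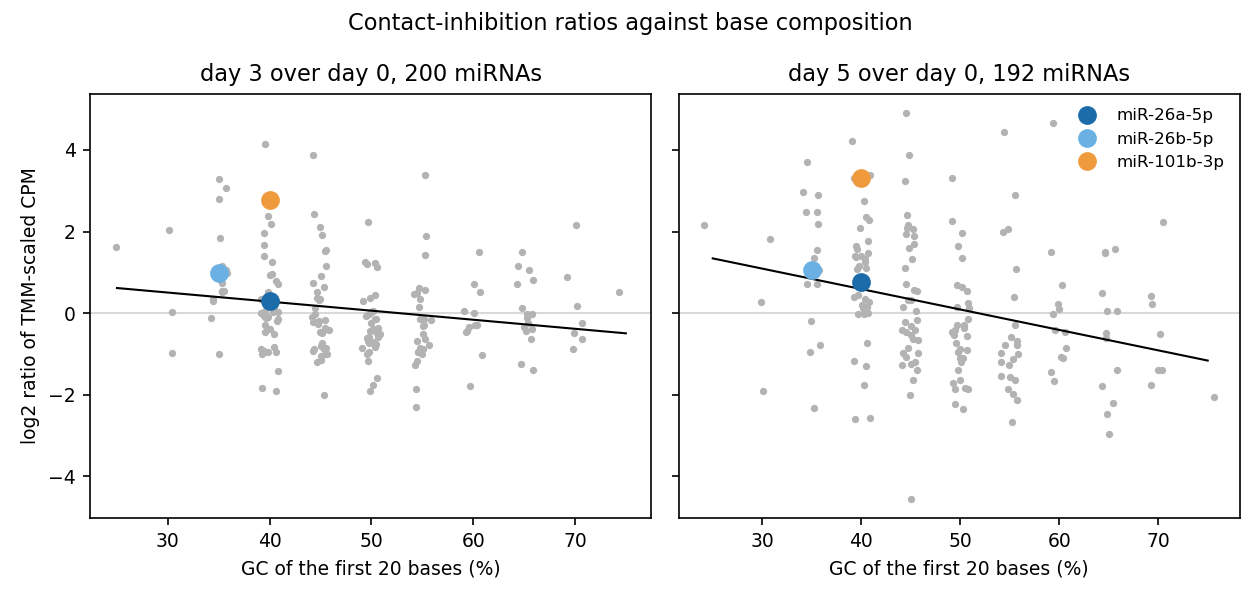
Log2 ratio of TMM-scaled CPM on contact day 3 (left) and day 5 (right) over day 0, against the GC percentage of the first 20 bases. Each grey point is a miRNA with at least 10 reads in both libraries, and the line is the fit of all points (slopes −0.22 and −0.50 per 10 percentage points). Only 3 guides are in colour, since miR-101a-3p had no U-start read on day 0. miR-101b-3p lies far above the line on both days, and miR-26a-5p lies close to it.

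The miRNAs whose log2(CPM + 1) followed each guide most closely over the 8 libraries were looked up among the 294, leaving out both families. For miR-101a-3p they were miR-218-5p (Pearson r 0.98), miR-136-5p (0.96) and miR-30e-5p (0.95), where the library at 0 reads carries weight: without contact day 0 the r values were 0.96, 0.79 and 0.72. For miR-101b-3p they were miR-299a-3p (0.89), miR-193a-3p (0.80) and miR-195a-5p (0.78), with 0.88, 0.78 and 0.86 without contact day 0. For miR-26a-5p they were miR-24-2-5p (0.97), miR-136-5p (0.92) and miR-218-5p (0.91), with 0.94, 0.85 and 0.82 without that library. For miR-26b-5p they were miR-376b-3p (0.91), miR-24-2-5p (0.88) and miR-29b-3p (0.87), with 0.75, 0.71 and 0.63 without it. miR-136-5p and miR-218-5p stand in the lists of both miR-101a-3p and miR-26a-5p. The points share library, depth and base composition, and these are the highest of many values.

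Other miRNAs reported to repress Ezh2 were read from a list of 15, of which 12 were counted and passed the filter. miR-30d-5p, miR-124-3p and miR-137-3p had no entry in the counts, so the filter did not judge them and their levels are not known here. None of the 12 was called in either direction between G0 and the other libraries by edgeR (0 at an unadjusted p under 0.05, and 0 by DESeq2), beside the 1.02% called among all 294. Their log2 differences ran from −1.32 for miR-138-5p, which had no read at serum 0, 12 or 20 h, to 0.59 for let-7i-5p, with a median of −0.32 and 5 of 12 above 0, against a median of −0.17 and 133 of 294 above 0 for all. The let-7 miRNAs, 8 of them in the list with the related miR-98-5p, were the abundant part. let-7a-5p had 66782 CPM on contact day 5, against 165276 CPM on day 0, while let-7f-5p had 217764 CPM on day 5, against 85708 CPM on day 0. let-7i-5p had 64503 CPM on day 5, against 14531 CPM on day 0, so that close relatives with the same seed lay on opposite sides.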

How the data were processed

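Per the labels, small-RNA cDNA libraries were made by an earlier published protocol. The authors deposited, for each library, distinct 36-nt reads with the count of each, adapter included. The adapter was read off the reads. The base caller, any filter and any aligner were not given in the sources used here. Adapters were trimmed in Python 3.11.15 (6 or more bases seen, 1 mismatch per 8). Inserts of 16 to 30 nt were kept and 2 abundant inserts taken to be marker oligonucleotides removed (12 shared bases, or within 3 edits). Inserts were counted for a RefSeq mature arm by the first 20 bases of its most read start. Library-wide tests used edgeR 4.0.16 (TMM, robust quasi-likelihood, experiment term, Benjamini-Hochberg over 294 miRNAs, 5 residual degrees of freedom; SE is the absolute log2 difference over the root of F). The alternative test was DESeq2 1.42.0. Ratio intervals are exact conditional binomial, share intervals Clopper-Pearson, both 95%. A count of 0 is given a limit of 3 reads. Ends needed 18 matched bases. A tail base equal to the next hairpin base counts as encoded. The fit and the end calls were tested on simulated data. Named miRNAs were every arm of the hairpins, the Ezh2 list and the 3 closest miRNAs by Pearson r for each guide. The members and lists were chosen with earlier results of these data known. Alternatives covered scaling, filter, model, bases and starts counted, tails, the GC trend and leaving out each library. Listed markers of liver were not used here.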

Additional observations from a re-analysis of the deposited data

Results flagged for a closer look

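Each of 15 sets of values over the 5 libraries not labelled G0 (4 levels and 11 end shares) was looked at for a library that stands apart, which chance alone gives in about 1 of 20. In 1 set a library did: the A-tailed share of miR-26b-5p was 21.1% at serum 12 h, against 8.74% to 11.8% in the other 4. That library held 15 distinct inserts of miR-26b-5p, the fewest of the 8, and 403 of its reads were the form with 1 added A.

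miR-101b-3p moved in opposite ways in the 2 kinds of arrest. It had 262 CPM at serum 0 h, lower than in each of the 4 released libraries (by less than counting error against 20 h, ratio 0.915, interval 0.642 to 1.31), and was higher on both contact days 3 and 5 than on day 0. The levels chose this miRNA, so the difference is given without a p of its own. In the edgeR fit the interaction of G0 and experiment was 4.27 on the log2 scale (contact minus serum) for miR-101b-3p and 8.67 for miR-101a-3p, whose count of 0 on contact day 0 enters that value, and the interaction called 0 of 294 miRNAs (16 at an unadjusted p under 0.05). With every 5′ start counted, miR-101b-3p at 0 h was 1.07-fold that of 12 h and the opposite movement was no longer complete.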

How the results depend on the processing

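No paired analysis was possible because each condition has 1 library and the labels give no replicate numbers. For G0 against the other libraries, dropping the experiment term turned miR-101a-3p to −0.22 and miR-26b-5p to −0.14, and leaving out single libraries gave −1.21 to 3.06 for miR-101b-3p, 0.23 to 8.93 for miR-101a-3p, 0.045 to 0.55 for miR-26a-5p and −0.012 to 1.03 for miR-26b-5p. The 3 calls became 13 by DESeq2's Wald test, 12 with no filter, 7 with every 5′ start, and 0 to 8 without single libraries (8 without serum 16 h, 6 without contact day 3, and 0 by edgeR without serum 0 h, with 25 at an unadjusted p under 0.05). On contact day 5 over day 0, the miR-101 sum was 8.15 with DESeq2 size factors and 7.42 less the fitted GC line (offset and slope). The miR-26 sum on days 3 and 5 was 1.11 and 1.25 with DESeq2 size factors, 1.59 and 1.56 by total miRNA reads, and 1.10 and 1.13 less that line. For miR-26a-5p alone, the log2 ratio of day 3 to day 0 was 0.29, and 0.0065 less that line. With DESeq2 size factors the levels of miR-26a-5p on both days were about equal. For serum 0 h over the mean of the released libraries, the log2 value of the miR-101 sum was −0.31, and 0.43 with every start. The miR-101 reads per 100 miR-26 reads with every start were 5.13, 4.29, 5.64, 3.34 and 2.94 (serum 0 to 24 h) and 1.29, 5.29 and 8.03 (contact days 0, 3 and 5). With inserts that match the hairpin over their whole length they were 1.36, 5.13, 2.57 and 1.01 at serum 0, 12, 16 and 24 h and 5.20 on contact day 5. GC slopes with 100 reads in every library were 0.37, 0.28 and 0.25 at serum 12, 20 and 24 h, 0.28 on contact day 0, and 0.12 for serum 0 h over 16 h. The U-tailed difference of miR-26b-5p, −0.11 percentage points, was 0.090 with tails of 1 base only and −0.82 to 0.88 without single libraries. Leaving out libraries gave −5.56 to 17.6 points for the U start of miR-101b-3p and −0.62 to 2.76 for shortened miR-26b-5p. With G0 labels moved only within each experiment, a test added after the data were seen, the differences in U tails were 0.17 points for miR-26a-5p and 0.92 for miR-26b-5p, and that of the U start of miR-101b-3p was −6.34. With tails of 1 base only, the miR-26b-5p groups overlapped (exact p = 0.143). No share passed its adjusted test under any setting, with a library left out the exact test cannot go below 0.0571, and within experiments not below 0.133. The cause of these changes was not tested. Depth limits miR-101a-3p most, with 12 or fewer reads at serum 24 h and on contact day 0.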
